A study of Mus musculus with 14 samples.

Results

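The genes described here encode proteins of the centrosome and its centrioles, measured by bulk RNA sequencing in cultured mouse tail epidermal cells. They are the 34 genes whose symbol is Cep followed by a number, with or without the ending l or l1, and 11 further genes taken by name: Cenpj, Pcnt, Plk4, Stil, Sass6, Pcm1, Cntrob, Cntln, Ninl, Nin and Cdk5rap2. Together they are 45 of the 55228 symbols in the count table. The set was put together after a lower level of Cenpj had been seen in the same comparison of regions, so the values of Cenpj are given as a description with no test. The 45 genes lie on 17 chromosomes, with 7 of them on chromosome 9.

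The study compared epidermal cells from a region of the tail called the distal memory region with cells from a control, non-memory region. All cells came from mice of the genotype Lrig1CreER/Rosa-TdTomato, in which a tamoxifen-activated Cre recombinase made under the Lrig1 gene, active in upper hair follicle stem cells, switches on a red fluorescent reporter. Cells of this Lrig1 lineage (labelled Lrig1 GL) that carried the surface protein Sca1 were sorted at the time point labelled 8w pw1 and grown in keratinocyte medium for 1 week before RNA was taken, and the treatment label was none in both regions. There were 8 control and 6 distal libraries. The sample descriptions divide them into 4 sets, CTRL1 with 6 libraries, CTRL2 with 2, MEM1 with 2 and MEM2 with 4, so that no set held both regions and set and region cannot be told apart. No label says whether libraries came from separate mice or cultures, and p-values therefore measure only the spread between these libraries.

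A centrosome is a pair of centrioles, barrels of microtubules, surrounded by a matrix that nucleates microtubules. In a dividing cell the kinase Plk4 starts the assembly of 1 new centriole beside each old one, with Stil and Sass6 forming the cartwheel that templates it, and Cenpj and its partners lengthening the new barrel. The older centriole carries distal and subdistal appendages and can dock at the cell membrane to become the base of a primary cilium, and in dividing basal keratinocytes the centrosomes form the poles of the spindle.

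Total counts were 4515646 to 7458872 in the control and 2137934 to 4513518 in the distal libraries, so that every distal library was shallower than every control library. The basal keratin Krt14 was abundant in all libraries, at 2975 to 5852 CPM (counts scaled to the library total) in control and 5745 to 11126 CPM in distal libraries. Krt15, another keratin of basal keratinocytes, was at most 2.85 CPM in control and 2.98 CPM in distal libraries. The keratinocyte factor Trp63 was lower in the distal libraries as counted, at 183 to 236 CPM in control and 90.8 to 127 CPM in distal libraries. Its log2 fold change was -0.92 as counted. With a trend on GC content and length removed, as described below, it was -0.04 (adjusted p = 0.87, edgeR). The values of Krt14 were 1.21 as counted and 0.31 (adjusted p = 0.13, edgeR) with that trend removed. The summed level of 6 fibroblast markers ranged from 0.535 to 241 CPM in control and from 2.3 to 88.7 CPM in distal libraries. The summed level of 6 melanocyte markers was 15.4 to 47.5 CPM in control and 12.7 to 41 CPM in distal libraries. Of these markers Mitf was at 15.1 to 45.7 CPM in control and 10.5 to 40.6 CPM in distal libraries, and Dct had no count. Of 7 immune markers 3 had no count, and the sum of the 7 was at most 1.18 CPM in control and 1.61 CPM in distal libraries. The summed level of 30 proliferation genes was 4373 to 5768 CPM in control and 3054 to 4249 CPM in distal libraries, without overlap. Abundant genes weigh most in this sum, and single genes of the list went both ways. Median levels in control and distal libraries were 1143 and 557 CPM for Rrm2 and 77 and 176 CPM for Ube2c. For depth, the fit was repeated on counts thinned to the smallest library total, with the result given at the end. The part of these marker sums in the results below was not tested.

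The summed level of the 45 genes did not overlap between the regions, with all distal libraries below the control libraries. It was 1149 CPM in the lowest, 1186 CPM in the median and 1355 CPM in the highest control library, and 651, 741 and 939 CPM in the lowest, median and highest distal library. The sum includes Cenpj, and abundant genes weigh most in it. The top 10 genes made up 62.8% of it in control and 56.0% in distal libraries. In bulk RNA, fewer cells of a type and less RNA per cell cannot be told apart. Of the 45 genes, 43 had enough counts to be tested. The other 2 were Cep112, with 2 counts over all control and 3 over all distal libraries, and Cep131, with 28 and 31. Among the 42 tested genes without Cenpj, 9 fell and 3 rose in the distal region (edgeR quasi-likelihood test, Benjamini-Hochberg adjusted p under 0.05 over all tested genes), and 30 did not pass. That is 28.6% of the 42, where 48.3% of all 11757 tested genes passed, 24.1% as lower and 24.3% as higher. Their median log2 fold change was -0.59, where that of all tested genes was -0.16, and 36 of the 42 values were below 0. Without the set CTRL1, which leaves 2 control libraries, the falls of Pcm1, Cep70, Cep57, Cep135 and Plk4 and all 3 rises did not pass, and without MEM2 the rise of Cep89 did not (adjusted p = 0.08).

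**Figure D1:**
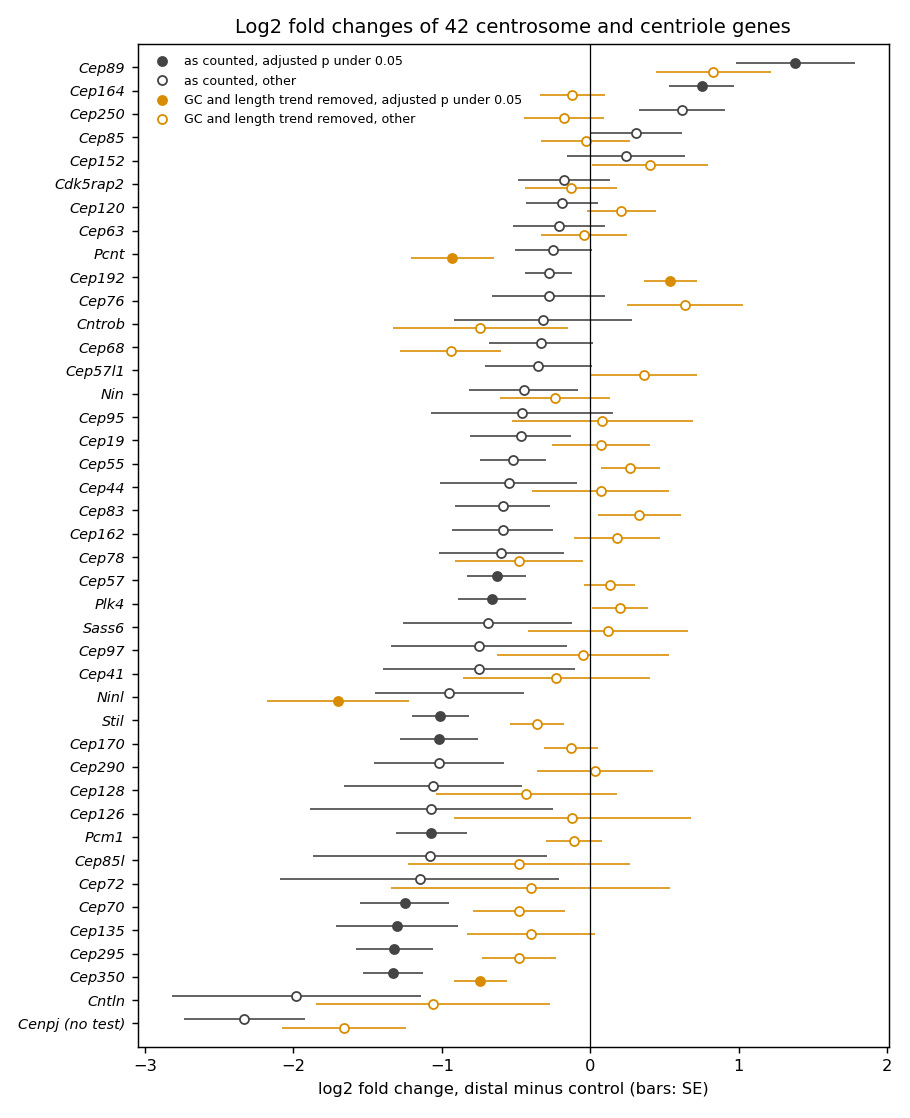
Log2 fold changes (distal minus control, x axis) of 42 tested genes (y axis), in the counts as deposited (dark) and after the trend of each library with transcript GC content and length was taken out (orange). Points are estimates, bars are standard errors, filled points passed an adjusted p of 0.05, and Cenpj has no test. Most dark points lie left of 0, and the orange points lie around 0, with Cep350 the gene that is filled in both.

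The direction of change went with the base composition of the transcripts. The 9 genes that fell had a median transcript GC content (the share of G and C bases, over the annotated transcripts of a gene) of 41.6 to 44.9%, and the 3 that rose had over 50%. The centrosome genes had a lower GC content than the tested genes as a whole, with a median of 44.9% against 49.6%. Over the 42 genes, Spearman's correlation of GC content with the log2 fold change was 0.62, and over all 11654 tested genes with an annotated transcript it was 0.73. These are descriptions across genes measured in the same libraries. Of the 23 centrosome genes under 45% GC, 9 fell (39.1%) and none rose, with a median of -0.75, where 52.6% of all tested genes in that range fell and 0.5% rose, with a median of -0.86. Of the 11 at 50% GC and over, none fell and 3 rose (27.3%), with a median of 0.24, where 5.5% of all tested genes in that range fell and 47.9% rose, with a median of 0.69.

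The same relation separated the libraries. The slope of a gene's log2 deviation from its mean on GC content, per 10 percentage points, ran from -0.58 to -0.32 in control and from 0.21 to 0.87 in distal libraries over all tested genes, and from -0.76 to 0.05 and from 0.21 to 0.78 over the centrosome genes. The regions overlapped in neither. Values are therefore given below both as counted and with the trend of each library on GC content and length removed. With the trend removed, 1 of the 42 genes rose (Cep192) and 3 fell (Cep350, Ninl and Pcnt), 9.52% of them, where 18.9% of 11654 genes passed, 10.4% as higher and 8.57% as lower. The median log2 fold change was -0.11 in the centrosome genes and 0.03 in all tested genes. All 12 genes called as counted moved closer to 0. Cep350 was called both ways, 11 genes were called only with the trend left in, and 3 of these (Plk4, Cep57 and Cep164) changed sign. The summed level of the 43 tested genes, Cenpj included, then overlapped between the regions, at 947 to 1074 CPM in control and 882 to 1050 CPM in distal libraries. Region, set and depth differ between the same libraries, so their parts in the trend cannot be told apart.

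**Figure D2:**
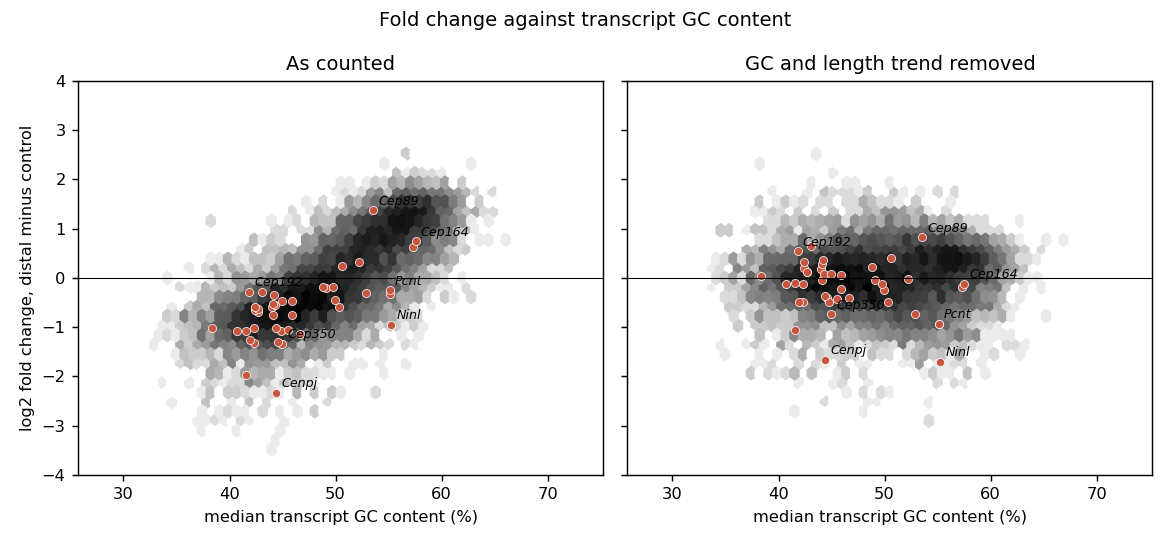
Log2 fold change (distal minus control, y axis) against median transcript GC content in percent (x axis), as counted (left) and with the GC and length trend removed (right). Grey hexagons count all tested genes, darker for more genes, and red points are the centrosome and centriole genes. The left cloud rises from below 0 at low GC content to above 0 at high GC content, with the centrosome genes along it, and Cenpj lies at the lower edge of both clouds.

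Promoter windows overlapped in GC content between the genes that fell and those that rose through Plk4 alone. They are shown here for Cenpj, for 2 of the genes that fell as counted (Stil and Cep295) and for 2 that rose (Cep89 and Cep164). Windows of 300 bases, 250 before and 50 after the transcript start, were taken from RefSeq on GRCm38.p6, where 38 of the 45 genes matched, with 47 windows. The GC content of the windows was 49.3 and 52.7% in the 2 matched genes that rose, and in the 7 matched genes that fell it ran from a value between these 2, that of Plk4, up to 70.7%. The Stil promoter, at 60.7%, was richer in G and C than that of Cep164, at 49.3%, while their transcripts, at 44.4% and 57.5%, stood the other way round. The windows are those of Cenpj (chr14:56571797-56572096, minus strand), Stil (chr4:114999868-115000167, plus strand), Cep295 (chr9:15357739-15358038, minus strand), Cep89 (chr7:35396813-35397112, plus strand) and Cep164 (chr9:45828614-45828913, minus strand), each written 5′ to 3′ on the strand of the gene. Capitals mark the motifs searched on both strands, which are the cell cycle element CHR (TTTGAA or TTCGAA), the CCAAT box (CCAAT) and E2F sites (TTTCCCGC, TTTGGCGC, TTTCGCGC or TTTGCCGC), all known from promoters of cell cycle genes.
Cenpj: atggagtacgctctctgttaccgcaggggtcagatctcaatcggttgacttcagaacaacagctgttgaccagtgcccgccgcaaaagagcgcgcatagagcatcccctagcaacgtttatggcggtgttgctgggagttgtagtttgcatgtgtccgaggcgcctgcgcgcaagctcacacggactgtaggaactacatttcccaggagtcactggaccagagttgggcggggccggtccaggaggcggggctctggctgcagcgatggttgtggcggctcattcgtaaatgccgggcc
Stil: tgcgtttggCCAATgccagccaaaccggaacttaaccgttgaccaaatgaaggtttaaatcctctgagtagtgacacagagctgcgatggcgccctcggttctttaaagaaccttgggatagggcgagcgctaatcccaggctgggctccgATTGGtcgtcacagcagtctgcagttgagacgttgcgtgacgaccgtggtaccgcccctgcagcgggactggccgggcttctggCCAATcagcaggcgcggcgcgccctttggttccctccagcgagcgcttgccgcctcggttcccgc
Cep295: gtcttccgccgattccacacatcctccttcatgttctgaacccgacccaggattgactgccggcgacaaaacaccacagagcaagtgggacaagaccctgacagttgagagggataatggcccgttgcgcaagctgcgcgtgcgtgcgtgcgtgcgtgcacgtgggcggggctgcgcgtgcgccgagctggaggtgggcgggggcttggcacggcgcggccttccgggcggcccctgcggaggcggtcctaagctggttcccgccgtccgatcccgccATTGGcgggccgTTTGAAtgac
Cep89: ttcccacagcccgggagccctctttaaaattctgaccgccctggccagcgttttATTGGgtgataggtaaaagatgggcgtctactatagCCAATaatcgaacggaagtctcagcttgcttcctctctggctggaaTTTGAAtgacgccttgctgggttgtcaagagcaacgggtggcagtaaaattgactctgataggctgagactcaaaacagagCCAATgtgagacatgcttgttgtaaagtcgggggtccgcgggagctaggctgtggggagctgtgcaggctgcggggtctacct
Cep164: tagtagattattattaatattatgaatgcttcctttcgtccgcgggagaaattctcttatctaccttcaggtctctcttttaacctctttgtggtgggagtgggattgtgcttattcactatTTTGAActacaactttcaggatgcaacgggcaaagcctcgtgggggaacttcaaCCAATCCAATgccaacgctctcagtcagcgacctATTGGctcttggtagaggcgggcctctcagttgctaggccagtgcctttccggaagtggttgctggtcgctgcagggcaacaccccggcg
The Cenpj window held none of the motifs. Stil held 3 CCAAT boxes, Cep295 held 1 CCAAT box and 1 CHR, and Cep89 and Cep164 each held 3 CCAAT boxes and 1 CHR, with no overlap between motifs. Over all 47 windows of the centrosome genes, 31.9% held a CHR, 42.6% a CCAAT box and 6.4% an E2F site, where the 32851 windows in the table had 19.2%, 37.4% and 2.3%. Of the 7 matched genes that fell, 1 held a CHR and 4 a CCAAT box, and both of the matched genes that rose held both. A match describes letters only and is no evidence of a bound site.

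Cenpj, also known as CPAP, binds tubulin and promotes the growth of centriole walls, and lies at chr14:56526761-56575425 on the minus strand (GRCm38). Its level was 6.41 CPM in the lowest, 17.7 CPM in the median and 35.2 CPM in the highest control library, and 2.19, 3.13 and 8.07 CPM in the lowest, median and highest distal library. The distal values were low in 5 of 6 libraries, which lay below every control library, and the sixth, distal replicate 6, lay within the control range. The log2 fold change was -2.33 ± 0.41 (SE) as counted and -1.66 ± 0.42 with the trend removed. It was -2.04 without the set MEM1, -2.89 without MEM2, -2.36 without CTRL1 and -2.21 without CTRL2. Its counts were low in the distal libraries, at 6 to 20 per library and 73 in all, against 813 in the control libraries.

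Genes of centriole duplication and assembly numbered 16 without Cenpj, of which 5 fell and none rose as counted (24.1% and 24.3% of all tested genes), with a median of -0.45. After removal of the trend none fell and 1 rose (8.57% and 10.4% of all tested genes), with a median of 0.09. Stil, the Plk4 substrate that brings Sass6 to the cartwheel, was at 39.4, 67.7 and 74 CPM in the lowest, median and highest control library and at 24.1, 30.1 and 44.8 CPM in the distal libraries. Of the distal libraries, 5 lay below every control library. Its log2 fold change was -1.01 ± 0.19 (SE, adjusted p = 0.0003, edgeR) as counted and -0.36 ± 0.18 (adjusted p = 0.17) with the trend removed. Cep295, which converts a new centriole into one able to recruit centrosome matrix, was at 44.1, 60.8 and 104 CPM in control and at 18.6, 21.9 and 52.1 CPM in distal libraries. Here too 5 distal libraries were below all controls, and distal replicate 4 was not. The fall was -1.32 ± 0.26 (adjusted p = 0.00049, edgeR) as counted and the value was -0.48 ± 0.25 (adjusted p = 0.19) with the trend removed. Exons of Cep295 overlap those of Gm16568 and Taf1d on the other strand, so its reads may be shared with them. Cep57, a matrix protein close to the centriole that partners Cep63, was at 68.2, 112 and 143 CPM in control and at 52.5, 64.1 and 107 CPM in distal libraries, with 4 distal libraries below all controls. It fell by 0.63 on the log2 scale as counted (SE 0.20, adjusted p = 0.013, edgeR) and stood at 0.13 ± 0.17 with the trend removed. Its call was lost without distal replicate 1, 5 or 6 (adjusted p = 0.056, 0.057 and 0.062), without the sets CTRL1 or MEM1 and with counts summed per set.

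The kinase Plk4 was at 38.7, 47.6 and 92.6 CPM in the lowest, median and highest control library and at 18.6, 34.6 and 44.8 CPM in the distal libraries, with 3 distal libraries below all controls. Its log2 fold change was -0.66 ± 0.23 (adjusted p = 0.026, edgeR) as counted and 0.20 ± 0.19 (adjusted p = 0.53) with the trend removed. Plk4 lost its call in 5 of the 14 fits that left out 1 library (control replicates 3 and 8 and distal replicates 1, 2 and 6), with upper-quartile scaling (adjusted p = 0.067), without the sets CTRL1, CTRL2 or MEM1 and with counts summed per set. Cep135, which links the cartwheel to the centriole wall, was at 9.31, 14.2 and 30.3 CPM in control and at 2.07, 7.09 and 14.1 CPM in distal libraries. Its values were -1.30 ± 0.41 (adjusted p = 0.014, edgeR) as counted and -0.40 ± 0.43 with the trend removed, and the call was lost without distal replicate 3 (adjusted p = 0.051) and without the sets CTRL1, MEM1 or MEM2. Sass6, the hub of the cartwheel, did not pass (-0.69 ± 0.57), and neither did the Plk4 recruiters Cep152 (0.24 ± 0.40) and Cep63 (-0.21 ± 0.31) or Cep120, a partner of Cenpj (-0.19 ± 0.24). Cep192, which recruits Plk4 and builds the mitotic matrix, was at 43.4, 56.1 and 66.7 CPM in control and at 36.4, 42.8 and 60.1 CPM in distal libraries. It did not pass as counted (-0.28 ± 0.16, adjusted p = 0.16, edgeR). With the trend removed it rose by 0.54 ± 0.18 (adjusted p = 0.047, edgeR), a call that was lost in 11 of the 14 fits that left out 1 library, without each set, with thinned counts and with counts summed per set. Cep44, Cep57l1, Cep76, Cep85, Cep97 and Cntrob had values from -0.75 (Cep97) to 0.31 (Cep85) and did not pass either way.

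Genes of the appendages of the older centriole, 7 in all, had 2 higher and 1 lower as counted (24.3% and 24.1% of all tested genes), with a median of -0.59. After removal of the trend none was higher and 1 lower (10.4% and 8.57% of all tested genes), with a median of -0.13. Cep164, a distal appendage protein needed for docking to the membrane, was at 9.25, 14.1 and 18.9 CPM in the lowest, median and highest control library and at 14.1, 24.1 and 31.6 CPM in the distal libraries, 5 of which lay above all controls. It rose by 0.75 ± 0.22 (adjusted p = 0.0099, edgeR) as counted and stood at -0.12 ± 0.22 with the trend removed. Cep89, another distal appendage protein, had low levels, with 1.06, 2.91 and 5.88 CPM in control and 5.08, 8.22 and 12.1 CPM in distal libraries, and 5 distal libraries above all controls. Its log2 fold change was 1.38 ± 0.40 (adjusted p = 0.0092, edgeR) as counted and 0.83 ± 0.39 (adjusted p = 0.14) with the trend removed. The third distal appendage gene, Cep83, did not pass (-0.59 ± 0.32 and 0.33 ± 0.28). Cep170, a subdistal appendage protein that binds microtubules, was at 85.6, 109 and 166 CPM in control and at 29.9, 59.8 and 88.7 CPM in distal libraries. It fell by 1.02 on the log2 scale as counted (SE 0.26, adjusted p = 0.0038, edgeR), with 5 distal libraries below all controls, and stood at -0.13 ± 0.18 with the trend removed. Ninl, related to the microtubule anchor ninein, was -0.95 ± 0.50 as counted (adjusted p = 0.12) and -1.70 ± 0.48 with the trend removed (adjusted p = 0.019, edgeR), on 220 control and 53 distal counts in all. Nin, ninein itself, did not pass (-0.45 ± 0.37 and -0.24 ± 0.37). The call of Ninl was lost without distal replicate 1 (adjusted p = 0.054), without the sets CTRL1, MEM1 or MEM2 (adjusted p = 0.11, 0.1 and 0.21), with counts summed per set (adjusted p = 0.11), with the replicate block (adjusted p = 0.11) and with the longest transcript used for the trend (adjusted p = 0.053). Cep128 did not pass (-1.06 ± 0.60).

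Cep350, a large centrosomal protein that binds microtubules, was the gene with the clearest separation, and lies at chr1:155844964-155973255 on the minus strand (GRCm38). It was at 67.7, 81.4 and 114 CPM in the lowest, median and highest control library and at 24.2, 28 and 50 CPM in the distal libraries. Every distal library was below every control library, which held for no other tested centrosome gene and for 5.65% of all tested genes. No centrosome gene was above all controls in all distal libraries, where 12.7% of all tested genes were. Its log2 fold change was -1.33 ± 0.20 (adjusted p = 4.9e-05, edgeR) as counted and -0.74 ± 0.18 (adjusted p = 0.0084, edgeR) with the trend removed. Without the trend the levels were 55.1, 68.3 and 98.9 CPM in control and 31.1, 36.1 and 56.3 CPM in distal libraries, which overlap in the highest distal library. On that scale no centrosome gene had all distal libraries below or all above the control libraries, where 2.51% and 4.37% of all tested genes did. The fall as counted passed in every alternative tried for it. With the trend removed it did not pass without the set CTRL1 (-0.52, adjusted p = 0.31), without MEM1 (-0.64, adjusted p = 0.071) or with counts summed per set (-0.67, adjusted p = 0.12).

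Cep70, which binds γ-tubulin at the centrosome, was at 15.6, 37.7 and 53.7 CPM in control and at 7.62, 13.6 and 24.5 CPM in distal libraries, 4 of which lay below all controls. Its log2 fold change was -1.25 ± 0.30 (adjusted p = 0.0024, edgeR) as counted and -0.48 ± 0.31 with the trend removed. Cep85l, Cep95 and Cep126, also placed in no narrower role, did not pass (-1.08 ± 0.79, -0.46 ± 0.61 and -1.07 ± 0.82).

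Pcm1, the scaffold of the centriolar satellites, granules that carry proteins to the centrosome, was at 61.1, 82.2 and 107 CPM in the lowest, median and highest control library and at 19.8, 31.7 and 71.8 CPM in the distal libraries. The distal libraries were low in 5 cases of 6, below every control. It fell by 1.07 on the log2 scale as counted (SE 0.24, adjusted p = 0.0013, edgeR), and its value was -0.11 ± 0.19 (adjusted p = 0.74) with the trend removed. The satellite protein Cep72 had 164 control and 28 distal counts in all and did not pass (-1.15 ± 0.94).

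**Figure D3:**
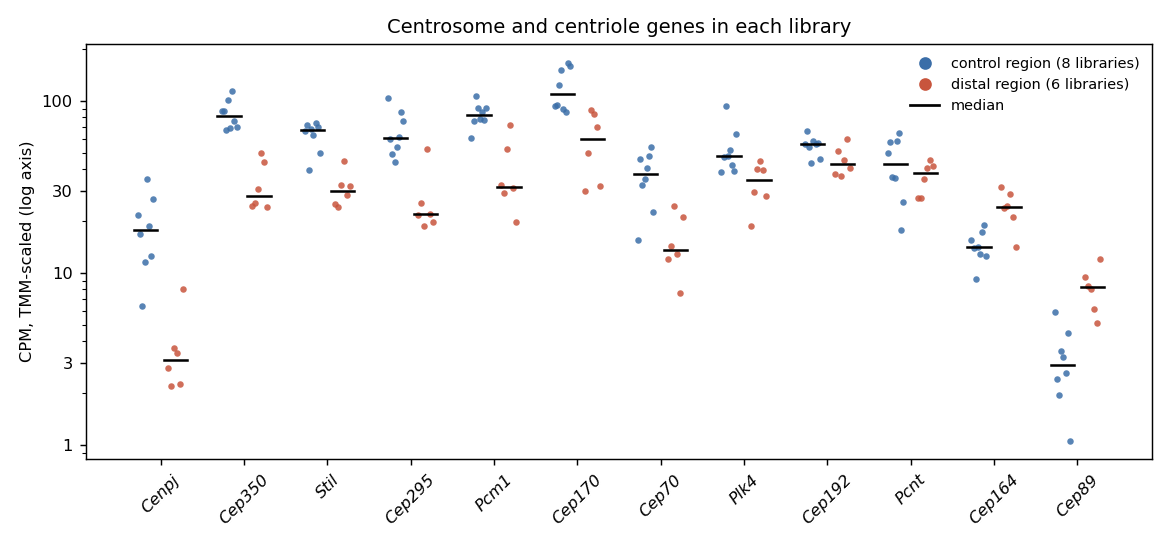
Level of 12 of the genes in each library in CPM with TMM scaling (log y axis), for 8 control (blue) and 6 distal (red) libraries, with the median of each region as a black bar. The distal points of Cep350 lie between 24.2 and 50 CPM, below all control points, and those of Cep164 and Cep89 lie mostly above the control points.

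The matrix around the centrioles was represented by Pcnt and Cdk5rap2, scaffolds that hold the γ-tubulin ring complex, and neither passed as counted. Pcnt was at 17.8, 42.7 and 64.6 CPM in the lowest, median and highest control library and at 27.1, 38 and 45.2 CPM in the distal libraries, so that the distal values lay inside the control range. Its value was -0.25 ± 0.26 as counted (adjusted p = 0.43) and -0.93 ± 0.28 with the trend removed (adjusted p = 0.026, edgeR). Without the set CTRL1 the latter became 0.16 (adjusted p = 0.82), and the call was also lost without the sets MEM1 or MEM2, with counts summed per set, without control replicate 6 and without distal replicates 1, 2 or 6. Cdk5rap2 was at 8.69, 16 and 30 CPM in control and at 8.44, 16.1 and 20.3 CPM in distal libraries, with values of -0.18 ± 0.31 and -0.13 ± 0.31.

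The linker that ties both centrioles together, with Cep250, Cep68 and Cntln, had no gene that passed either way. Cep250 was at 7.22, 9.78 and 12 CPM in control and at 5.28, 17.5 and 20 CPM in distal libraries. Of these, 4 lay above all controls and 1 below, and the value was 0.62 ± 0.29 (adjusted p = 0.084, edgeR) as counted and -0.18 ± 0.27 with the trend removed. It passed with upper-quartile scaling (0.80, adjusted p = 0.038), with the stricter count filter (adjusted p = 0.034), without the set MEM2 (adjusted p = 0.045) and without any 1 of control replicate 7 and distal replicates 3 and 4, and was -0.29 in libraries over 4000000 counts. Cntln spread widely, from 0.237 to 38.9 CPM in control and from 0.23 to 8.71 CPM in distal libraries, with a value of -1.98 ± 0.84 (adjusted p = 0.061, edgeR) as counted and -1.06 ± 0.79 with the trend removed. As counted it passed without distal replicate 3 (-2.89, adjusted p = 0.012), without any 1 of control replicates 2, 5 and 6, without the set CTRL1 (-3.21, adjusted p = 0.03), with DESeq2 (adjusted p = 0.019) and with counts summed per set (adjusted p = 0.03). Cep68 did not pass (-0.33 ± 0.35 as counted and -0.94 ± 0.34, adjusted p = 0.064, with the trend removed).

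Genes of the cilium that did not pass as counted or with the trend removed included Cep290, Cep162, Cep19, Cep41 and Cep78. Cep290, a gatekeeper at the base of the cilium, was at 7.81, 23.6 and 46.7 CPM in control and at 2.46, 12.7 and 18.6 CPM in distal libraries, with values of -1.02 ± 0.44 (adjusted p = 0.062, edgeR) and 0.03 ± 0.39. As counted it passed without control replicate 6 (adjusted p = 0.045) or 7 (adjusted p = 0.048), with DESeq2 (-1.05, adjusted p = 0.032) and with counts summed per set (-1.09, adjusted p = 0.041). Cep162, which marks the base of the cilium's core, was at 17.1, 25.2 and 37.1 CPM in control and at 3.29, 15.1 and 30 CPM in distal libraries and did not pass (-0.59 ± 0.34 and 0.18 ± 0.29). Its value as counted moved to -1.83 without the set MEM2, where it passed (adjusted p = 0.0073, edgeR), and to -0.17 without MEM1. The values as counted were -0.47 ± 0.34 for Cep19, -0.75 ± 0.65 for Cep41 and -0.60 ± 0.42 for Cep78.

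Cep55, which acts at the midbody when daughter cells separate, was at 51.8, 72.8 and 125 CPM in the lowest, median and highest control library and at 34.3, 54.5 and 75 CPM in the distal libraries, with 3 distal libraries below all controls. Its value was -0.52 ± 0.22 (adjusted p = 0.058, edgeR) as counted and 0.27 ± 0.20 with the trend removed. It passed with DESeq2 (-0.55, adjusted p = 0.037), with its size factors in edgeR (-0.55, adjusted p = 0.049) and without control replicate 1 (adjusted p = 0.047).

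**Figure D4:**
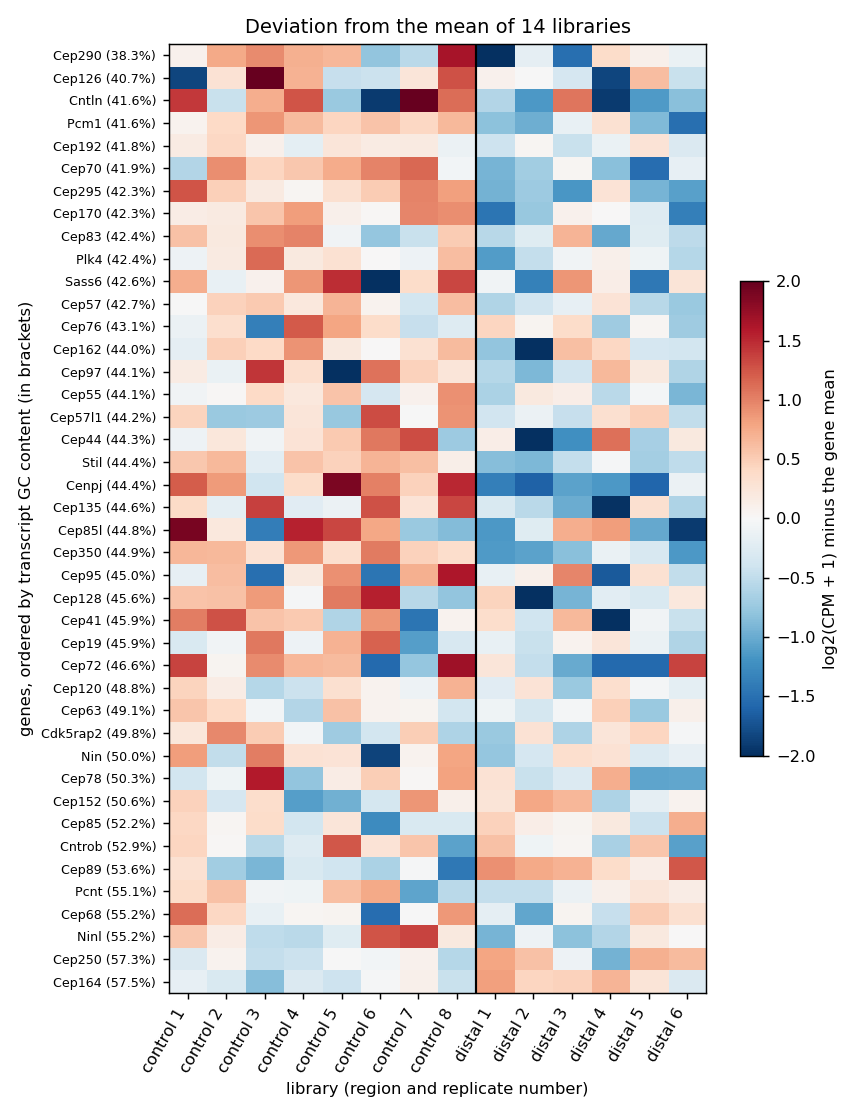
Deviation of each of 42 tested genes (y axis, ordered by transcript GC content in percent) from its mean over 14 libraries in log2(CPM + 1), for control and distal libraries (x axis, divided by the black line). Red is above and blue below the mean. Rows at the top, low in GC content, are mostly blue in the distal libraries, and several rows at the bottom are red there.

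Sets of libraries within a region were also compared, a contrast that did not enter the choice of the genes. No centrosome gene differed between CTRL2 and CTRL1 or between MEM2 and MEM1 at an adjusted p under 0.05 (edgeR quasi-likelihood test with 4 sets), and of all 11757 tested genes 0% did in either contrast. On simulated data, these contrasts recovered 9.2% (control sets) and 3.3% (distal sets) of 2-fold changes. Of 4-fold changes they recovered 62.3% and 37.7%, so the lack of calls does not show that the sets were alike. At an unadjusted p under 0.05 there were 3 centrosome genes between the control sets and 2 between the distal sets, where 8.24% and 7.83% of all tested genes passed. Pcnt was lower in CTRL2, at a mean of 21.9 CPM against 50.2 CPM in CTRL1 (log2 fold change -1.20 ± 0.30, adjusted p = 0.41, edgeR), and DESeq2 called it, together with 0.34% of all tested genes, while limma-voom called none. Cep19 was at 9.35 CPM in CTRL2 against 22.4 CPM in CTRL1 (adjusted p = 0.52, edgeR), and Cntln at 24 against 5.44 CPM (adjusted p = 0.6). Between the distal sets, Cep162 was at 21.6 CPM in MEM2 and 7.09 CPM in MEM1 (1.61 ± 0.50, adjusted p = 0.6, edgeR), and Cep170 at 68.7 and 39.6 CPM (adjusted p = 0.63). DESeq2 and limma-voom called no centrosome gene between the distal sets, where DESeq2 called 0.264% of all tested genes. Without Cenpj, both distal sets had a lower mean than both control sets in 26 of the 42 genes and a higher mean in 5, with a mixed order in 11, where 39.2% of all tested genes had both distal means lower and 34.2% had both higher. Cep350 was among the former, at 87.7 and 73 CPM in CTRL1 and CTRL2 and at 25.1 and 37.1 CPM in MEM1 and MEM2. All these means are as counted. With the trend removed, 25 of the 42 log2 fold changes between the regions lay below 0 and 17 above. The order of means is again the comparison of regions, in which the fall of Cenpj had been seen before the genes were chosen. The means of Cenpj, 18.4, 19.7, 2.5 and 4.36 CPM in the same order of sets, are therefore only a description.

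Genes that work with the centrosome proteins were taken from lists chosen by function. Beside the counts for these lists, 24.3% of all tested genes rose and 24.1% fell as counted. With the trend removed, 10.4% of all tested genes rose and 8.57% fell. Of 9 tested genes of the γ-tubulin ring complex, which nucleates microtubules at the matrix, 3 rose and 1 fell as counted, and 2 rose with the trend removed. Tubg1, γ-tubulin itself, had median levels of 15.9 CPM in control and 51 CPM in distal libraries (1.29 ± 0.29, adjusted p = 0.0014, edgeR, and 0.49 with the trend removed), and Tubgcp2 had 12.3 and 27.9 CPM (1.14 ± 0.26, adjusted p = 0.0019, and 0.88, adjusted p = 0.022, with the trend removed). Of the 8 subunits of augmin, which branches microtubules in the spindle, 2 rose and 1 fell as counted. Haus6 fell from a median of 192 CPM to 68.5 CPM (-1.31 ± 0.26, adjusted p = 0.00052, and -0.99, adjusted p = 0.0086, edgeR, with the trend removed). Haus8 rose from a median of 7.98 CPM to 14.7 CPM (0.84 ± 0.23, adjusted p = 0.0064, edgeR, and 0.10 with the trend removed). Of 29 other centriole proteins, 8 rose and 4 fell as counted, and 2 rose and none fell with the trend removed. Cetn2, a centrin of the centriole lumen, was at medians of 82.2 CPM in control and 38.5 CPM in distal libraries (-1.14 ± 0.23, adjusted p = 0.00058, edgeR, and -0.34 with the trend removed). Poc1a, with the next smallest p, rose from a median of 8.98 CPM to 20.2 CPM (1.18 ± 0.26, adjusted p = 0.0011, edgeR, and 0.39 with the trend removed).

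Of 22 tested regulators of the spindle and centrosome cycle, 5 rose and 8 fell as counted, and 2 rose and 4 fell with the trend removed. For this list and the next, the shares of all tested genes were 24.3% and 24.1% as counted and 10.4% and 8.57% with the trend removed. The mitotic kinase Plk1 had medians of 22.6 CPM in control and 64.2 CPM in distal libraries (1.42 ± 0.17, adjusted p = 4.6e-06, edgeR, and 0.56, adjusted p = 0.016, with the trend removed). Akap9, a centrosomal anchor of kinases, had 120 and 58.3 CPM (-1.04 ± 0.17, adjusted p = 7.8e-05, and -0.47, adjusted p = 0.045, edgeR, with the trend removed), and the microtubule polymerase Ckap5 had 144 and 60.7 CPM (-1.10 ± 0.17, adjusted p = 6.7e-05, and -0.23, adjusted p = 0.33). Of 8 genes of the surveillance pathways that p53 carries out when centrosomes or mitosis fail, 3 rose and 1 fell as counted and 2 rose with the trend removed. Those 2 were Trp53, encoding p53, at medians of 54.1 and 140 CPM (1.29 ± 0.19, adjusted p = 3.6e-05, and 0.76, adjusted p = 0.0041, edgeR, with the trend removed), and its target Cdkn1a, at 104 and 349 CPM (1.67 ± 0.16, adjusted p = 1.6e-06, and 1.01, adjusted p = 4.3e-05). The rest of the list is named here after its values were seen. The sensors Usp28 (-0.84, adjusted p = 0.065) and Trp53bp1 (0.02, adjusted p = 0.95) did not pass. Mdm2 (-0.38, adjusted p = 0.085) and Ankrd26 (-0.86, adjusted p = 0.051, edgeR) did not pass either. Pidd1 rose as counted (0.91, adjusted p = 0.0065) and Casp2 fell (-0.93, adjusted p = 0.042, edgeR). With the trend removed these stood at 0.06 and -0.78 and did not pass.

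Of the 22 tested genes of intraflagellar transport, which builds cilia, 4 rose and 5 fell as counted, and 2 rose and none fell with the trend removed. Here and for the lists that follow, 24.3% of all tested genes rose and 24.1% fell as counted, and 10.4% and 8.57% with the trend removed. Kifap3, a subunit of the transport motor, had medians of 75.2 CPM in control and 16.7 CPM in distal libraries (-1.59 ± 0.31, adjusted p = 0.00054, and -0.78, adjusted p = 0.058, edgeR, with the trend removed). Ift43 rose from a median of 18.5 CPM to 30.9 CPM (0.79 ± 0.21, adjusted p = 0.0049, edgeR, and 0.46 with the trend removed). Of 20 tested genes of the transition zone and BBSome, 4 rose and 4 fell as counted. Bbs5, a BBSome subunit, had medians of 16.5 CPM in control and 7.17 CPM in distal libraries (-1.43 ± 0.36, adjusted p = 0.0033, edgeR, and -0.63 with the trend removed). Of the 20, 1 rose with the trend removed, Tmem216, named here after its values were seen (1.33, adjusted p = 0.017, edgeR). None of 10 genes of multiciliated cells had enough counts to be tested. Of the 30 proliferation genes, 9 rose and 10 fell as counted and 7 rose and 6 fell with the trend removed. Rrm2, a subunit of ribonucleotide reductase, fell from a median of 1143 CPM to 557 CPM (-1.04 ± 0.14, adjusted p = 1.5e-05, edgeR), and Ube2c, of the anaphase-promoting system, rose from 77 to 176 CPM (1.26 ± 0.17, adjusted p = 1.5e-05).

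Levels were compared between genes only per kilobase of transcript. On the median annotated transcript length, Cep192 was highest in control libraries, at 84.6 CPM per kb in the median library, before Cep57 at 77.6, Cep350 at 60.8 and Cep70 at 51. The ranges of Cep192 (65.5 to 101) and Cep57 (47 to 98.9) overlapped, as did those of Cep350 (50.5 to 85.1) and Cep70 (21 to 72.6). In distal libraries the median was 64.5 for Cep192, 44.2 for Cep57, 20.9 for Cep350 and 18.3 for Cep70, in CPM per kb. The order depends on the transcript: on the longest annotated one, Cep57 was first at 44.6 CPM per kb, Cep192 the eleventh at 6.93 and Cep350 the thirteenth at 6.12.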

How the data were processed

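Per the labels' protocols, the 14 libraries were made from sorted and cultured cells with Smart-seq2 and then Nextera XT. The authors deposited raw counts per gene symbol, not normalised. The submitters' processing notes name HISAT2, featureCounts and the build mm10 (GRCm38). The strand setting of the counting was not given in the sources used here. Exons of 16 of the 45 genes overlap another gene's, 13 of them on the opposite strand (among them Cep295, Sass6, Cep290 and Cep250), so their counts may include reads of those genes.

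Counts were fitted over the whole table by edgeR 4.0.16 in R 4.3.3, with genes kept by filterByExpr, totals scaled by TMM, a two-sided robust quasi-likelihood F test and Benjamini-Hochberg adjustment (threshold 0.05). Fold changes are log2, distal minus control, and an SE was computed as the absolute fold change over the square root of F. CPM uses TMM-scaled totals. Over all tested genes, the median log2 fold change came to -0.16 under TMM, -0.18 under DESeq2 1.42.0 size factors and 0.00 under the upper quartile, a shift that every fold change carries. For the values with the trend removed, natural splines (4 degrees of freedom) of median transcript GC content and log2 length (GENCODE, GRCm38) were fitted in each library and used as offsets. The sets of each region were compared through contrasts of 4 set means. The steps were tested on simulated data. There the comparison of regions recovered 10.0% of 1.5-fold, 32.4% of 2-fold and 80.3% of 4-fold changes, so a gene that did not pass may still differ. Alternatives were DESeq2, limma-voom (limma 3.58.1), other scalings and filters, libraries over 4000000 counts, leaving out sets or libraries, counts thinned to 2137934 per library, counts summed per set, and a replicate block.

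The genes and the lists were chosen with earlier results of these data known. Named genes are Cenpj, up to 3 genes per role and per related list with the smallest p, with the remaining centrosome genes given by value. For 1 gene, which the counts include, values are not reported here. Plk4, Cep135 and Cep192 were given in full after their values were seen. Whole numbers of counts limit the precision of the low genes: 11 of the 43 tested genes had under 100 counts over the distal libraries.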

Additional observations from a re-analysis of the deposited data

Results flagged for a closer look

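In 5 of 86 groups examined (43 genes in each region), 1 library stood apart from the others by Dixon's criterion, which chance meets in about 1 group in 20. For Cenpj this was distal replicate 6, at 8.07 CPM, with the nearest distal library at 3.67 CPM. For Cep295 it was distal replicate 4, at 52.1 CPM, with the nearest at 25.6 CPM. In distal replicate 3, Cep83 was at 36.9 CPM with the nearest at 19 CPM, and Cntln at 8.71 CPM with the nearest at 2.11 CPM. Cntln was also high in control replicate 7, at 38.9 CPM, with the nearest control library at 11.4 CPM.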

How the results depend on the processing

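Cep350, Cep295, Stil and Cep170 passed as counted without each set and each single library, and under the 3 scalings. Only Cep350 also passed with the trend removed.

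As counted, 3 centrosome genes rose and 9 fell. With the trend removed the counts were 1 and 3, with the trend of the longest transcript 1 and 2, with libraries over 4000000 counts (8 control and 2 distal) 0 and 2, and without CTRL1 0 and 5. For all tested genes, 2853 higher and 2828 lower became 1209 and 999, 1230 and 970, 854 and 389, and 1195 and 1072 in the same order, with 1649 lower without MEM1 and 1376 lower with counts summed per set. For the related genes, 38 higher and 34 lower became 18 and 11, 13 and 7, 6 and 4, and 10 and 11, with 22 higher without MEM2, 20 lower without MEM1, and 23 and 17 with counts summed per set. Without each library in turn, 3 to 4 centrosome genes rose and 7 to 11 fell, 2695 to 3207 of all genes rose and 2105 to 2724 fell, and 36 to 41 related genes rose and 22 to 34 fell, the 22 being without distal replicate 6. With counts thinned to 2137934 per library and the trend left in, 3 centrosome genes rose and 9 fell, and 2668 of all genes rose and 2566 fell.

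With the trend removed, the 1 centrosome gene that rose became 0 without each set in turn, with thinned counts and with counts summed per set, and 0 to 1 without each library. The 3 that fell became 0 without CTRL1, 0 without MEM1, 1 without MEM2 and 0 with counts summed per set, and 1 to 3 without each library, the 1 being without distal replicate 1. Pcnt then changed sign without CTRL1 (0.16). DESeq2 called 1 gene between the control sets where edgeR called 0. Cep164 (-0.12), Cep57 (0.13) and Plk4 (0.20) changed sign with the trend removed, and also with that of the longest transcript (-0.05, 0.01 and 0.06). Fits without a set or a library also hold fewer libraries, and the cause of these changes was not tested.

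Both regions have replicate numbers 1 to 6, but same-numbered libraries did not deviate together (correlations -0.017 to 0.110, with 2 of 6 distal libraries closest to their own number), so the numbers were not taken as pairs. A replicate block was fitted only on replicates 1 to 6 of each region, which leaves out the set CTRL2. With it, 3 centrosome genes rose and 9 fell, the same numbers as in the fit of all libraries without a block. With the block and the trend removed 0 rose and 2 fell, for all genes 1040 and 960 and for the related genes 13 and 11, and Cep164 (-0.15), Cep57 (0.08) and Plk4 (0.19) changed sign.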
